A study of Mus musculus with 47 samples.

Results

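Histone marks at the genes of the cytosolic ribosomal proteins were examined in livers of 7 week old mice. The genes were chosen by symbol, as autosomal protein-coding genes of the mm9 annotation named Rpl or Rps and a number, with the a, l, x and P0 to P2 forms taken and the Rps6k kinases and pseudogenes left out. This rule gave 78 of 21418 autosomal protein-coding genes, 48 of the large subunit (Rpl) and 30 of the small subunit (Rps), and it used no histone mark. RNA was not analysed here, so that the activity of these genes is described by its marks only. Of the 78, 7 are l, al or l1 forms, paralogs of another ribosomal protein gene. Rpl10, Rpl36a, Rpl39 and Rps4x lie on the X chromosome and were left out, as were 55 symbols of pseudogenes. The genes lie on 18 autosomes, with 14 on chromosome 7.

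Livers came from male and female Floxed control mice (Ezh2 f/f) and from male and female E1/E2-KO mice (Ezh1-/-, EZH2f/f, AC+), and every mouse of all 4 groups carried the floxed Ezh2 allele. AC is Alb-Cre, a Cre recombinase driven by the albumin promoter. In E1/E2-KO mice Ezh2 was therefore deleted in hepatocytes, other liver cell types kept it, and Ezh1 was missing from every cell. H3K27ac, H3K4me1 and H3K27me3 were measured by ChIP-seq in 4 livers of each group, except that H3K4me1 had 3 livers of E1/E2-KO females, and the authors pooled the reads of a group before calling peaks. Each group and mark thus has 1 list of peak positions and no replicate, so that no difference between groups could be tested and none has a standard deviation. Peak positions do not check the deletion of Ezh1 or Ezh2. In what follows, 4 values given without other labels are those of control male, E1/E2-KO male, control female and E1/E2-KO female liver, in this order.

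Ribosomal proteins are made in every growing cell and in nearly fixed proportions, and their genes are commonly used as examples of constitutively active genes. Many of them lack a TATA box and begin transcription inside a run of pyrimidines, which also starts the mRNA and ties its translation to growth signals. Many carry small nucleolar RNA genes in their introns. H3K27ac marks nucleosomes next to active promoters and enhancers, with the base pairs just before an active start usually free of nucleosomes. H3K4me1 lies at enhancers and at the shoulders of active promoters, outside the acetylated part. H3K27me3 is the repressive mark that EZH1 and EZH2 place as the catalytic subunits of Polycomb repressive complex 2.

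The genes are short, with a median span of 3305.5 bp against 15535 bp over all 21418 genes. Small nucleolar RNA genes lie within 27 of the 78, which hold 53 of them, while 1.18% of all genes hold any. For each gene 1 start was used, the coding start shared by most of its coding transcripts. The start of another gene on the opposite strand lay within 1 kb for 13 of the 78, among them Rpl9 (Lias), Rps18 (Vps52), Rps28 (Ndufa7) and Rpl12 (Lrsam1). At 12 of the 78 the start used was not the annotated start furthest upstream. At the 13 genes with an opposite start a peak near the start cannot be assigned to 1 of the 2 genes.

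The promoter sequences shown here are those of 5 genes that had no H3K27ac peak at the start in any of the 4 lists, since the account of H3K27ac turns on them. Each sequence spans 130 bases of the mm9 genome on the strand of the gene, its last 20 bases beginning with the annotated start base, and covers the promoter and the beginning of the first exon. Capitals mark CCGGAAG, a core that ETS family factors bind, or CTTCCGG, its reverse complement.
Rpl3 (chr15:79913817-79913946, minus strand): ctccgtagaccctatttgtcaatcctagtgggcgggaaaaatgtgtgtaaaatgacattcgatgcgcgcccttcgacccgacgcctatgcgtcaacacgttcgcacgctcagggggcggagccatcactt
Rpl13a (chr7:52384099-52384228, minus strand): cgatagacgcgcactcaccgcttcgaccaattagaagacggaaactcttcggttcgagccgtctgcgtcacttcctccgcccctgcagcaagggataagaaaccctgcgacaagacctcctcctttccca
Rpl15 (chr14:19103562-19103691, minus strand): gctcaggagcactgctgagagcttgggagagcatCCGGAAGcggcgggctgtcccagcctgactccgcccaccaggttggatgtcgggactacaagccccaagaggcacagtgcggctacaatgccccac
Rps21 (chr2:179991972-179992101, plus strand): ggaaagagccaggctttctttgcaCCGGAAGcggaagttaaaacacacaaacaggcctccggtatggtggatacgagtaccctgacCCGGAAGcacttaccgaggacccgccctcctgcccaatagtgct
Rps29 (chr12:70260154-70260283, minus strand): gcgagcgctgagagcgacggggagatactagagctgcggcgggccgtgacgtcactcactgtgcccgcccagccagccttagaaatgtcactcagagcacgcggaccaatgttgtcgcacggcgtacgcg

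Of these, Rpl15 and Rps21 hold the ETS core, and Rps21 holds it in 2 places. The same core occurs in genes whose starts carried H3K27ac in all 4 lists. The sequences of Rps18 and Rps6 and, on the reverse strand, of Rps7 and Rpl19 are shown for comparison. Rps7 and Rps18 encode proteins of the small subunit, Rps6 encodes the substrate of the S6 kinases, and Rpl19 encodes a large subunit protein.
Rps18 (chr17:34092643-34092772, minus strand): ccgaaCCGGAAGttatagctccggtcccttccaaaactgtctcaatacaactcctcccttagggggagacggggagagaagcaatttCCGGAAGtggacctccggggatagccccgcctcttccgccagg
Rps6 (chr4:86503297-86503426, minus strand): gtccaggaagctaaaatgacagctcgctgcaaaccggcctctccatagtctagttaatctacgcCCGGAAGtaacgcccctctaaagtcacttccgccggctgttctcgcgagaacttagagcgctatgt
Rps7 (chr12:29320799-29320928, minus strand): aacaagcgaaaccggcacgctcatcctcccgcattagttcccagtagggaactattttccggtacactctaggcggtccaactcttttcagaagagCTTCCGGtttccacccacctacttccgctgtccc
Rpl19 (chr11:97887914-97888043, plus strand): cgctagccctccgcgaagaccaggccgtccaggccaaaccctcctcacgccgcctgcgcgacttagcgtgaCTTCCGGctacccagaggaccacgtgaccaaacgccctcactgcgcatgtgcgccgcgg

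Motifs were searched on both strands from 150 bases before to 20 after the start, unless stated otherwise. CCGGAAG was found in 23 of 78 ribosomal protein promoters (29.5%, Wilson 95% interval 20.5 to 40.4%). The share was 8.64% over all 21418 genes, 16.3% over genes with H3K27ac in all 4 lists, and 28.6% over 77 genes of mitochondrial ribosomal proteins, which serve the separate ribosome of mitochondria. The share in the ribosomal genes was thus close to that of the mitochondrial ribosomal genes. A match to these letters is a description of the sequence and not evidence of a bound factor.

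A run of 8 or more pyrimidines touching the 10 bases on either side of the start was found in 28 of 78 genes (35.9%). The share was 13.7% over all genes, 12.6% over those with H3K27ac in all 4 lists and 10.4% over the mitochondrial ribosomal genes. Starts here are annotated ones, and RNA 5' ends were not mapped. Shares at the start base therefore describe the annotation and do not show where transcription begins in liver. The start base itself was a pyrimidine in 24 of 78 genes (30.8%, against 25.9% of all genes) and a C in 19 (24.4%, against 15.5%). It lay inside a run of 5 or more in 8 genes (10.3%, against 8.90%) and inside one of 8 or more in 5 (6.41%, against 3.53%). These differences were not tested. The runs of 5 genes in which the start base itself lies inside the run follow as 40 bases of which 20 precede the start base, with the run in capitals. They belong to Rpl14 and Rpl27 of the large subunit, Rplp1, an acidic protein of the stalk that recruits elongation factors, and Rps24 and Rps21 of the small subunit. These 5 were picked after their sequences were seen, to show runs of different length, and that of Rps21, with 7 bases, falls short of the limit of 8.
Rpl14 (chr9:120480612-120480651, plus strand): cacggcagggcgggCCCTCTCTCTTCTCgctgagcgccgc
Rplp1 (chr9:61762326-61762365, minus strand): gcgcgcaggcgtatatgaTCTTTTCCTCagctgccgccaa
Rps24 (chr14:25309883-25309922, plus strand): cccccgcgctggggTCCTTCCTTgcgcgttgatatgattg
Rpl27 (chr11:101303592-101303631, plus strand): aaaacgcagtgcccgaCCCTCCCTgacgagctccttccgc
Rps21 (chr2:179992062-179992101, plus strand): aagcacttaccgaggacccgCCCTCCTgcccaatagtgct

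For the other motifs the shares lay closer to those of all genes. GGGCGG, the GC box, was found in 44.9% of the 78 promoters, in 38.9% of all and in 60.2% of those with H3K27ac in all 4 lists. CCAAT was found in 26.9% against 27.2% of all, and CACGTG in 3.85% against 5.29%. AAGATGG, a core of YY1 sites, was found in 3.85% against 3.42%. TATAA, sought on the sense strand from 45 to 15 bases before the start, was found in 3.85% against 4.28%. The ratio of observed to expected CpG had a median of 0.817 in the ribosomal genes, 0.562 in all genes and 0.759 in those with H3K27ac in all 4 lists, and Rpl3l had the lowest of the 78 with 0.185.

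H3K27ac lay at the start of most ribosomal protein genes, and at the same ones in every list. A peak was counted at the start when it came within 500 bp of it. By this measure 68 of 78 genes carried H3K27ac in each of the 4 lists (87.2%, Wilson 95% interval 78.0 to 92.9%, counting error only). Over all 21418 genes the shares were 44.1%, 51.0%, 50.2% and 50.6% in that order. The 68 were the same genes in all 4 lists, so that by this measure none of the 78 gained or lost H3K27ac at the start between sexes or genotypes. With the annotated start furthest upstream in place of the shared one, the counts were 66, 67, 67 and 68. With equal numbers of the widest peaks they were 68, 66, 67 and 66, and with a window of 1 kb they were 68, 68, 68 and 69. Among all genes 43.4% were acetylated in all 4 lists, and 2194 of 21418 were acetylated in 1 to 3 lists. The lists themselves differed in length, with 29359 peaks in control male liver and 49702 to 55930 in the other three.

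Mitochondrial ribosomal, initiation factor and nucleolar assembly genes gave similar shares. H3K27ac was at the start of 72 of 77 mitochondrial ribosomal genes (93.5%) in each list, of 51 or 52 of 55 genes with Eif symbols (translation initiation factors and their kinases and binding proteins), and of 20 or 21 of 21 genes of nucleolar ribosome assembly. Of 4 ribosomal protein genes whose symbols do not follow the rule (Rpsa, Fau and Gnb2l1 among them), 3 carried it in each list. Of 7 genes of cytosolic elongation factors, 4, 5, 5 and 5 carried it, with no peak at Eef1a2 and Eef1d in any list and Eef2 missing in control male liver only. The list as set also held Eef2k, a kinase that acts on Eef2, under 2 annotated genes, and with them the counts were 4, 6, 6 and 6 of 9. Without the 7 paralogs, 64 of 71 ribosomal protein genes (90.1%) were acetylated in each list. None of these differences was tested.

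Marker genes of liver cell types were looked up in the same lists. Of 10 hepatocyte markers, 4, 5, 5 and 6 carried H3K27ac at the start, and the markers Fgb, Serpina1b, Tat and Tdo2 carried none. The shares of all genes were 44.1%, 51.0%, 50.2% and 50.6%, so that this measure did not set hepatocyte markers apart. RNA was not analysed, and a start without a peak is not read as an inactive gene. Endothelial markers were acetylated at 1, 2, 2 and 3 of 5 starts, stellate markers at 1, 1, 2 and 2 of 4, and cholangiocyte markers at 1 of 4 in each list. None of 5 Kupffer cell markers and none of 4 muscle and brain markers was acetylated in any list. The hepatocyte, endothelial and stellate counts differed between lists, as did the share of all genes, while the ribosomal count stayed at 68. The livers were whole tissue, so that fewer marked cells and fewer marks per cell cannot be told apart.

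**Figure D1:**
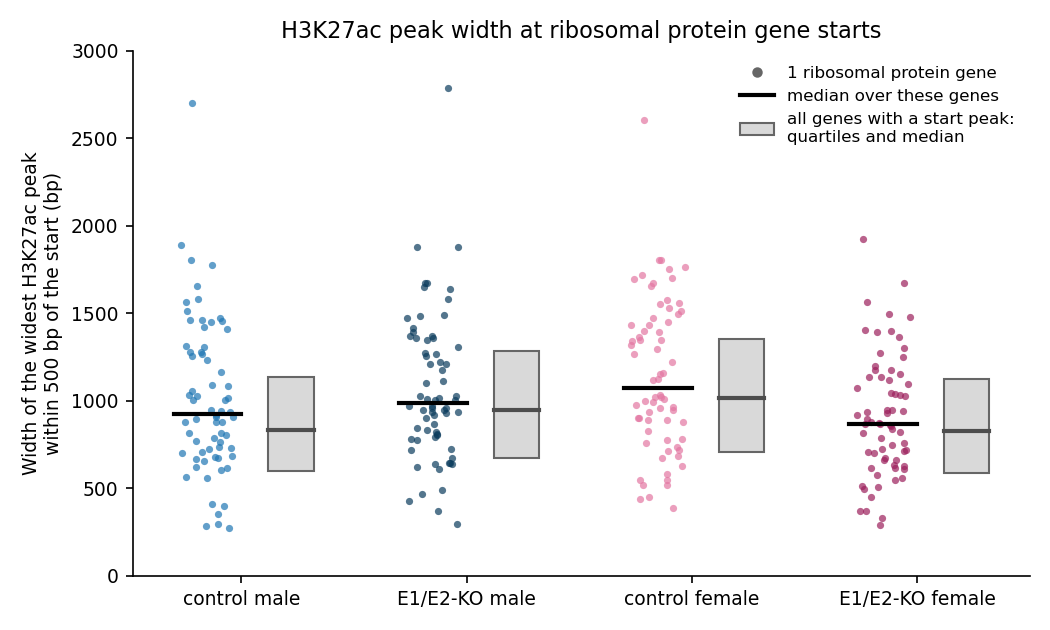
Width in bp of the widest H3K27ac peak within 500 bp of the start, for the 68 ribosomal protein genes that have one. Points are genes, and the plot marks the median of these genes and that of all genes with such a peak in each of the 4 lists. The ribosomal medians run from 869 bp in E1/E2-KO female to 1075 bp in control female liver, and all genes follow the same order of lists.

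The acetylated stretch was of ordinary width. The width of the widest H3K27ac peak at the start had medians of 925.5, 987.5, 1075 and 869 bp over the 68 genes. All genes with a peak at the start had medians of 831, 949, 1013 and 828 bp. Intervals of the ribosomal medians, from order statistics over genes at 95%, were 813 to 1053 bp, 927 to 1176 bp, 961 to 1342 bp and 761 to 945 bp. These intervals are taken over the same genes within 1 list each, so that their overlap does not compare lists. A median ribosomal gene stood at percentile 58.9, 53.4, 55.0 and 53.9 of all acetylated genes of the same list. All H3K27ac peaks within the gene span together covered 24.5%, 26.5%, 26.3% and 22.6% of the median ribosomal gene, while the medians over all acetylated genes were 3.56%, 4.86%, 5.04% and 4.18%.

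Large and small subunit genes had similar widths. The 42 acetylated Rpl genes had medians of 888.5, 957.5, 1136 and 858.5 bp. The 26 acetylated Rps genes had medians of 1021.5, 1012, 1020.5 and 944.5 bp. The order of the subunits was not the same in each list, with Rpl genes the wider ones only in control female liver.

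Widths differed widely among the genes, from 275 to 2701 bp in control male liver, 294 to 2789 bp in E1/E2-KO male, 385 to 2602 bp in control female and 289 to 1925 bp in E1/E2-KO female liver. By the mean width over the 4 lists, the widest peak lay over Rpl7, a large subunit gene, with 2701, 2789, 2602 and 1925 bp. Rps27a, which encodes a small subunit protein fused to ubiquitin, had 1805, 1647, 1802 and 1564 bp. Both kept their place among the wide peaks in every list. Rpl13 followed with 1777, 1307, 1802 and 1395 bp, Rpl30 with 1890, 1492, 1764 and 1040 bp, and Rps25 with 1452, 1638, 1498 and 1481 bp. Rps25, a small subunit gene, varied least of these between lists.

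By the mean width over the 4 lists, the narrowest peaks lay at Rps2, Rpl36, Rpl28, Rpl18 and Rpl23a. In single lists others could be narrower, as Rpl35 was in control male (275 bp) and E1/E2-KO female liver (289 bp). Rps2, a protein of the small subunit, had 351, 294, 385 and 368 bp, and its peak lay upstream of the start only, in all 4 lists. In the 1 kb downstream of this start 68.3% of 50-base sequences occur once in the genome, the lowest share of the 78 genes. The annotation also gives Rps2 a start 1947 bp further upstream. The part of either in this arrangement was not tested. Rpl36 had 281, 487, 439 and 448 bp, and Rpl23a, whose product sits near the exit of the peptide tunnel, had 410, 465, 520 and 507 bp. At Rpl28 (295, 622, 516 and 331 bp) and Rpl18 (561, 428, 447 and 369 bp) the acetylation was split into peaks on either side of the start. A narrow peak there is 1 side of an interrupted stretch.

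The values of genes often used as references or known for roles outside the ribosome follow. Rplp0, the scaffold of the ribosomal stalk and a usual reference in quantitative PCR, had 1053, 927, 890 and 618 bp. Rps18, another reference gene, had 1233, 1268, 1318 and 1273 bp and was the steadiest of this group, at percentiles 80.7, 74.1, 72.9 and 83.6 of all acetylated genes. Rps6 had 934, 804, 946 and 624 bp. Rpl5 and Rpl11, whose products form a particle with 5S RNA that binds the p53 regulator Mdm2, had 917, 970, 993 and 1026 bp and 1005, 1220, 977 and 856 bp. Rps19, a gene mutated in Diamond-Blackfan anaemia, had 1030, 960, 936 and 718 bp. Rplp0, Rps6, Rpl11 and Rps19 were narrowest in E1/E2-KO female liver, while Rpl5 was widest there.

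**Figure D2:**
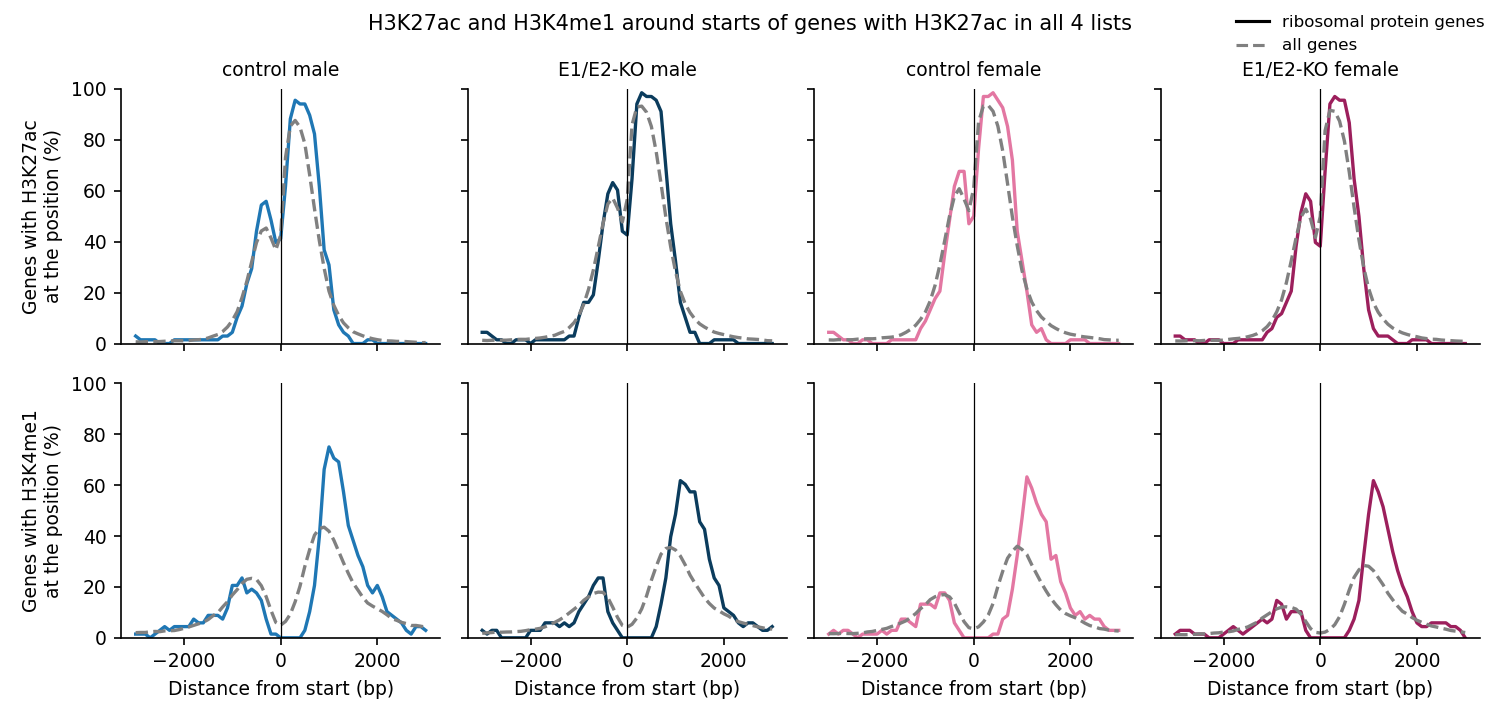
Percent of genes covered by H3K27ac (upper row) and H3K4me1 (lower row) at each distance in bp from the start, downstream to the right, in the 4 lists. Solid lines are the 68 ribosomal protein genes and dashed lines all genes with H3K27ac in all 4 lists. Ribosomal H3K27ac reaches 95.6 to 98.5% at 300 bp downstream, where their H3K4me1 is at 0%.

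Acetylation lay mainly downstream of the start, over the first part of the gene. In all, 82.4%, 88.2%, 86.8% and 88.2% of the 68 genes had more acetylated bases downstream than upstream within 2 kb, against 75.4%, 75.9%, 74.5% and 75.9% of all acetylated genes. At 300 bp downstream 95.6%, 98.5%, 97.1% and 97.1% of the 68 genes were covered. At the start base itself 41.2%, 42.6%, 50% and 38.2% were covered, and at 300 bp upstream 55.9%, 63.2%, 67.6% and 58.8%. In each list the share at the start was thus below that on either side, and the downstream side was the higher one. Shares of all genes at 300 bp on either side are not given here. This shape is therefore not read as particular to ribosomal genes.

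The arrangement around the start fell into 4 kinds. A peak lay over the start base at 28, 29, 34 and 26 of the 68 genes (41.2%, 42.6%, 50% and 38.2%), against 42.2%, 53.3%, 57.4% and 47.4% of all acetylated genes. Peaks lay on both sides with the start base free at 17, 21, 18 and 23 genes, and downstream only at 22, 17, 15 and 18 (32.4%, 25%, 22.1% and 26.5%, against 33.9%, 23.9%, 21.5% and 27.4% of all). The shares with peaks on both sides were 25%, 30.9%, 26.5% and 33.8%, against 18.5%, 18.6%, 17.4% and 20.5% of all. Mitochondrial ribosomal genes were covered at the start base at 54.2%, 73.6%, 76.4% and 61.1%. These shares come from 1 list each, and their differences were not tested.

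Of the 68 genes, 47 had the same arrangement in all 4 lists (69.1%) and 21 did not, while 5587 of all 9306 genes acetylated in all 4 lists had the same one throughout. A peak over the start base was found in all 4 lists at 21 genes, among them Rps19, Rps27a, Rps25, Rpl7 and Rpl30. Peaks on both sides of a free start were found in all 4 at 12 genes, among them Rps6, Rps18, Rpl28, Rpl18 and Rpl7a. The same 12 were those with 2 or more H3K27ac peaks at the start in all 4 lists (15.4% of the 78, against 4.90% of all genes). Peaks downstream only were found in all 4 at 13 genes, among them Rplp0, Rpl5, Rpl11, Rpl36 and Rpl23a. Rps2 had its peak upstream only in each list. Shares of all genes that kept each single kind in all 4 lists are not given here.

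**Figure D3:**
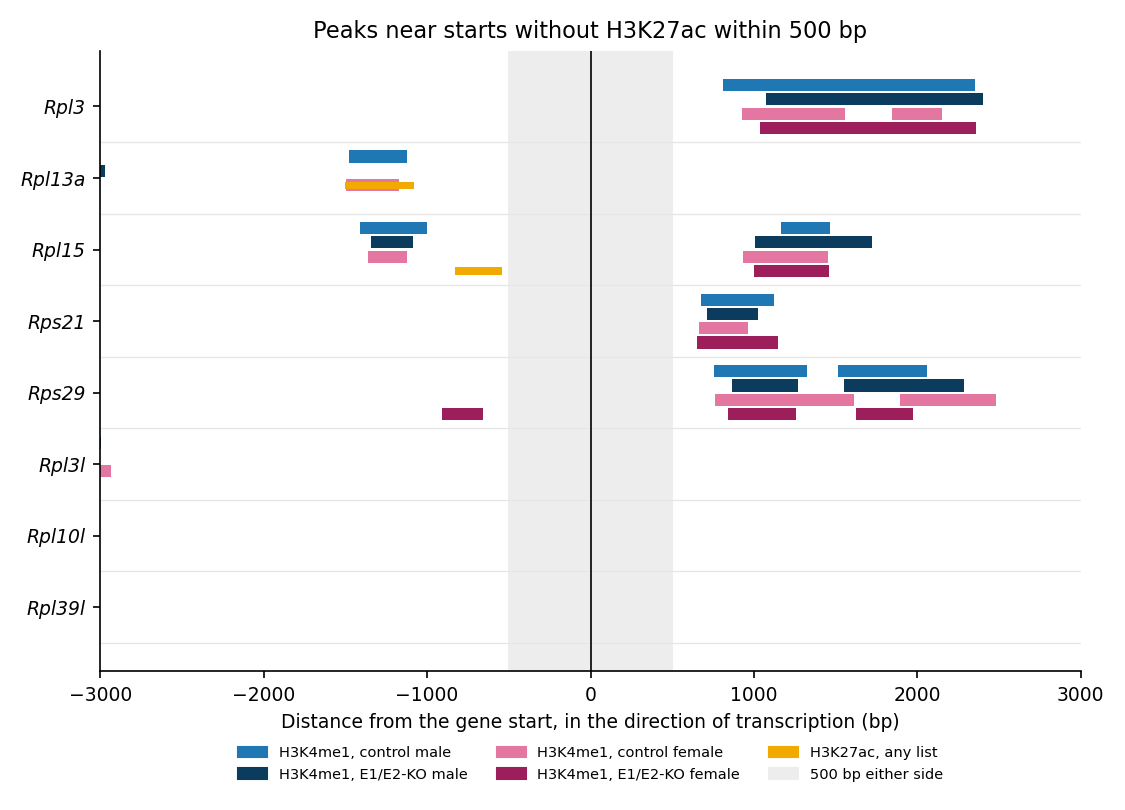
Peaks within 3 kb of the start at ribosomal protein genes without H3K27ac at the start, by distance in bp from the start. Each bar is 1 peak, coloured by list for H3K4me1 and in yellow for H3K27ac, and the shaded band is 500 bp on either side. Rpl3, Rps21, Rps29 and Rpl15 have H3K4me1 downstream of the start in all 4 lists.

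At 10 genes there was no H3K27ac at the start in any list. They included Rpl3, Rpl13a, Rpl15, Rps21 and Rps29, whose promoters are printed above, and the paralogs Rpl3l, Rpl10l and Rpl39l. The paralogs are known for expression outside the liver, Rpl3l in heart and skeletal muscle and Rpl10l and Rpl39l in testis. Rpl3 encodes a protein near the peptidyl transferase centre of the large subunit. Rpl13a and Rpl15 encode further large subunit proteins, and Rps21 and Rps29 encode small subunit proteins.

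H3K4me1 lay downstream of the start of Rpl3, Rps21, Rps29 and Rpl15 in all 4 lists. At Rpl3 the H3K4me1 peak ran from 808 to 2353 bp downstream in control male, 1072 to 2399 bp in E1/E2-KO male and 1035 to 2360 bp in E1/E2-KO female liver. In control female liver it came as 2 peaks, from 924 to 1557 bp and from 1844 to 2151 bp. At Rps21 it ran from 676 to 1124 bp, 711 to 1023 bp, 662 to 963 bp and 649 to 1147 bp. The nearer edges of these peaks lay at about the distance seen at the acetylated ribosomal genes, where H3K4me1 began at medians of 818.5, 899.5, 960 and 940.5 bp downstream.

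At Rps29 the peak nearest the start on the downstream side ran from 754 to 1324 bp, 864 to 1266 bp, 764 to 1613 bp and 841 to 1257 bp. At Rpl15 it ran from 1163 to 1467 bp, 1004 to 1719 bp, 931 to 1451 bp and 1000 to 1457 bp. These genes thus had the H3K4me1 shoulder of the other ribosomal genes, and no H3K27ac peak was called inside it. Of the 56 ribosomal genes with H3K4me1 in the flank and none on the start in all 4 lists, 5 (8.93%) lacked H3K27ac, while 697 of 5197 genes (13.4%) did so overall.

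At Rpl13a, on chromosome 7, H3K4me1 was called upstream in all 4 lists, at different distances. A peak ran from -3591 to -3082 bp relative to the start in control male, from -3579 to -2975 bp in E1/E2-KO male and from -3516 to -3139 bp in control female liver. A nearer peak was called in the controls alone, from -1480 to -1123 bp in males and from -1496 to -1171 bp in females. In E1/E2-KO female liver the nearest upstream peak ran from -7240 to -6722 bp.

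The nearest H3K27ac was mostly far from these starts. It was 7341, 7324, 7352 and 7338 bp away at Rpl3 and 9167, 8853, 9056 and 9013 bp at Rps29. At Rps21 it was 7452, 7463, 5915 and 7409 bp away, and at Rpl13a 7029, 7101, 1079 and 6664 bp. At Rps21 and Rpl13a the control female list had the nearest peak. The annotation also gives Rpl13a a start 7669 bp further upstream, close to the more distant of its peaks.

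Rpl15 had an H3K27ac peak within 1 kb in E1/E2-KO female liver only, from -827 to -543 bp relative to the start, while the nearest ones in the other lists were 32039, 31267 and 31277 bp away. A gene on the opposite strand, Nkiras1, starts within 1 kb of Rpl15. Rpl3l had its nearest H3K27ac 3453, 3412, 3426 and 3445 bp away, Rpl39l at least 129605 bp and Rpl10l at least 902070 bp. Rpl10l and Rpl39l were also the 2 genes with no flanking H3K4me1 in any list.

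Ribosomal protein genes have many processed pseudogenes, and reads shared with a copy cannot be placed uniquely. All 50-base sequences within 500 bp of the start were therefore counted in the genome. Those occurring once made up 64.1% at Rps29, the lowest share of the 78 genes. Over the 7 genes without H3K27ac that are not paralogs the median was 100%, and over the acetylated genes it was 99.0%, with a lowest share of 80.2% at Rpl24. The part of this in the absence of a peak at Rps29 was not tested. The deposited lists hold no read depth, so that a weak signal under the calling threshold and no signal cannot be told apart.

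**Figure D4:**
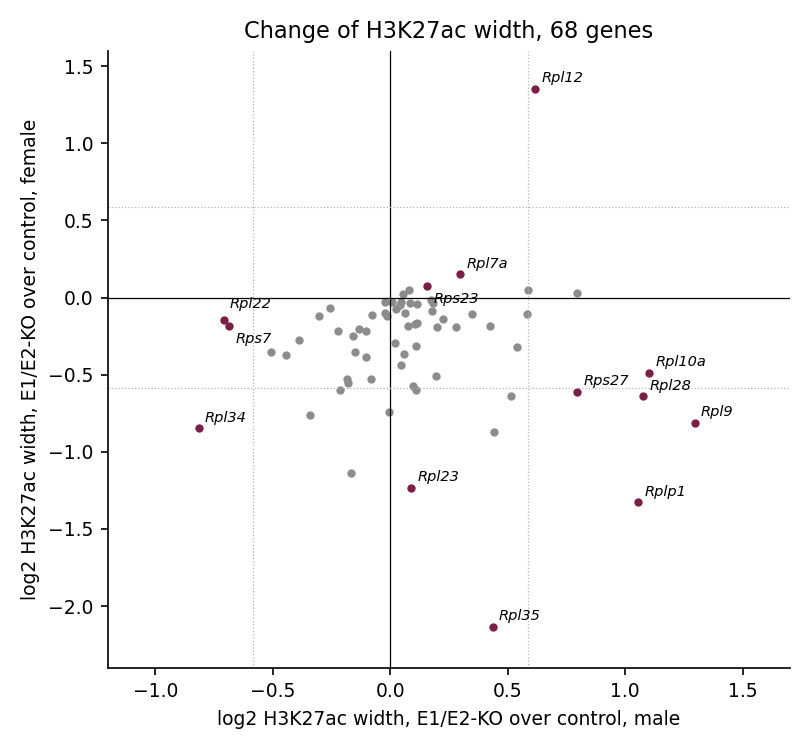
Log2 ratio of H3K27ac width at the start, E1/E2-KO over control, in males (horizontal axis) and females (vertical axis). Each point is 1 of the 68 ribosomal protein genes, and dotted lines mark a change of 1.5-fold in either direction. Most points lie below the horizontal zero line, with 61 genes narrower in E1/E2-KO females.

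Between E1/E2-KO and control livers the widths at ribosomal genes moved with those of all genes. In males the median ratio of E1/E2-KO to control width was 1.05 (order-statistic interval 1.00 to 1.08), with 43 genes wider and 25 narrower (63.2% and 36.8%). All genes with a peak in both male lists had a median ratio of 1.12, with 74.1% wider and 25.7% narrower. In females the ribosomal median was 0.871 (0.782 to 0.907), with 7 genes wider and 61 narrower (10.3% and 89.7%), and that of all genes was 0.891, with 23.2% wider and 76.5% narrower. Set against all genes with a peak in both lists, the ribosomal medians were thus 0.935 of the overall ratio in males and 0.978 of it in females.

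Changes of 1.5-fold or more were few. In E1/E2-KO males 8 of 68 genes were wider (11.8%, against 22.3% of all genes tested) and 3 were narrower (4.41%, against 2.41%). In E1/E2-KO females 1 gene was wider (1.47%, against 3.04%) and 14 were narrower (20.6%, against 19.8%). The female shares were thus near those of all genes, and the share of wider ribosomal genes in males was below that of all. In all, 36 genes were wider in males and narrower in females, 25 were narrower in both sexes and 7 were wider in both. Over all genes 74.1% were wider in males and 76.5% were narrower in females. Joint counts over all genes are not given here, so that the 36 are not read as particular to ribosomal genes.

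The largest rises in males were at the large subunit genes Rpl9, Rpl10a and Rpl28. Rpl9 went from 765 bp in control to 1878 bp in E1/E2-KO male liver (ratio 2.45) and from 1527 to 871 bp in females (0.570). Rpl10a went from 876 to 1879 bp (2.14) in males and from 1752 to 1251 bp in females, and Rpl28 from 295 to 622 bp (2.11) and from 516 to 331 bp (0.641). At Rpl9 the acetylation was 2 peaks in control male and E1/E2-KO female liver and 1 joined peak in the other lists. Counted as acetylated bases within 2 kb of the start, Rpl9 had 1257, 1878, 1527 and 1194 bp, a smaller spread than that of the widest peak. Rpl10a had 2 peaks in control male liver and 1 in the other lists, and its acetylated bases were 1333, 1879, 1752 and 1251 bp. At Rpl28 the widest peak lay upstream of the start in control male liver and downstream in the other lists. Its male ratio thus compares different peaks, and its acetylated bases were 561, 869, 911 and 606 bp.

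The largest falls in males were at Rpl34, Rpl22 and Rps7. Rpl34 went from 1582 to 899 bp (0.568) in males and from 1560 to 867 bp in females, with 1 joined peak in the controls and 2 peaks in E1/E2-KO livers. Its acetylated bases within 2 kb were 1582, 1415, 1560 and 1420 bp, so that the bases moved less than the width. Rpl22 went from 1266 to 774 bp (0.611) in males and from 901 to 813 bp in females, and Rps7 from 1257 to 781 bp (0.621) and from 1295 to 1138 bp. Both also went from 1 peak to 2 in males, and their acetylated bases within 2 kb went from 1266 to 1070 bp at Rpl22 and from 1257 to 1158 bp at Rps7.

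In females the largest rise was at Rpl12, from 548 to 1401 bp (2.56), again with 2 peaks in the control list and 1 in the E1/E2-KO list. Rpl7a rose from 775 to 861 bp (1.11) and Rps23 from 1022 to 1075 bp (1.05). The largest falls were at Rpl35, from 1268 to 289 bp (0.228), Rplp1, from 1655 to 660 bp (0.399), and Rpl23, from 1431 to 609 bp (0.426). At Rpl35 control male and E1/E2-KO male liver had peaks of 275 and 372 bp, and the acetylated bases within 2 kb were 275, 1007, 1268 and 289 bp, so that E1/E2-KO male liver had more acetylation around this start than its peak width shows. At Rplp1 and Rpl23 the single peak of control female liver was 2 peaks in E1/E2-KO female liver.

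Control livers also differed by sex, with a median ratio of male to female width of 0.935 over the 68 genes and 0.863 over all genes. This contrast shares its control lists with those above.

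Of the paralogs with H3K27ac, Rps27l, whose transcription p53 is known to raise, had 1461, 1486, 1578 and 1497 bp, and its parent Rps27 had 788, 1368, 1345 and 881 bp. Rpl22l1 had 722, 637, 756 and 514 bp, beneath its parent Rpl22 in each list. Rpl7l1 had 1658, 1475, 1673 and 761 bp, beneath its parent Rpl7 in each list. Rpl36al, a copy of the X-linked Rpl36a, had 880, 866, 1703 and 1672 bp, as 2 peaks in both male lists and 1 joined peak in both female lists. Its acetylated bases within 2 kb were 1550, 1556, 1703 and 1672 bp, a smaller difference than that of the widths, and Mgat2 starts within 1 kb of it on the opposite strand. All 4 of these paralogs were acetylated in every list.

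H3K4me1 flanked nearly all ribosomal genes, mostly on the downstream side. A flanking peak was one that overlapped 500 bp to 3 kb from the start on either side. It was found at 75, 70, 72 and 65 of 78 genes (96.2%, 89.7%, 92.3% and 83.3%), against 56.3%, 56.5%, 50.3% and 47.3% of all genes. Downstream flanks were marked at 69, 63, 65 and 59 genes, against 45.8%, 45.04%, 39.5% and 36.0% of all genes, and upstream flanks at 37, 30, 30 and 26, against 29.6%, 26.6%, 23.8% and 20.2%. In all 4 lists 61 genes were flanked (78.2%, against 38.1% of all genes). In 1 to 3 lists 15 were flanked, as were 5665 of 21418 genes, among them Rpl7, Rpl23a, Rps25, Rps28 and Rpl13a. Restricted to acetylated genes, 98.5%, 94.1%, 94.1% and 88.2% of ribosomal genes were flanked, against 92.7%, 84.1%, 80.3% and 72.4% of all genes with H3K27ac at the start.

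On the start itself, within 250 bp, H3K4me1 was rare. It was found at 1, 3, 1 and 0 ribosomal genes, against 19.7%, 20.7%, 14.6% and 12.5% of all genes. The gene was Rpl10a in control male liver, Rpl22l1, Rpl26 and Rps3 in E1/E2-KO male liver, and Rpl12 in control female liver, and none had it in more than 1 list. At 300 bp downstream none of the 68 acetylated genes was covered by H3K4me1 in any list, against 14.2%, 11.4%, 8.94% and 5.17% of all genes with H3K27ac in all 4 lists. At 1 kb downstream 75%, 48.5%, 47.1% and 48.5% of the 68 were covered, against 41.9%, 34.5%, 34.7% and 28.1%. On the downstream side H3K4me1 stood further from the start in ribosomal genes, with the medians given above, where all such genes had 718, 765, 758 and 793 bp. On the upstream side the order differed between lists, with 677, 478.5, 621 and 776 bp against 628, 665, 673 and 711 bp. These differences were not tested.

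**Figure D5:**
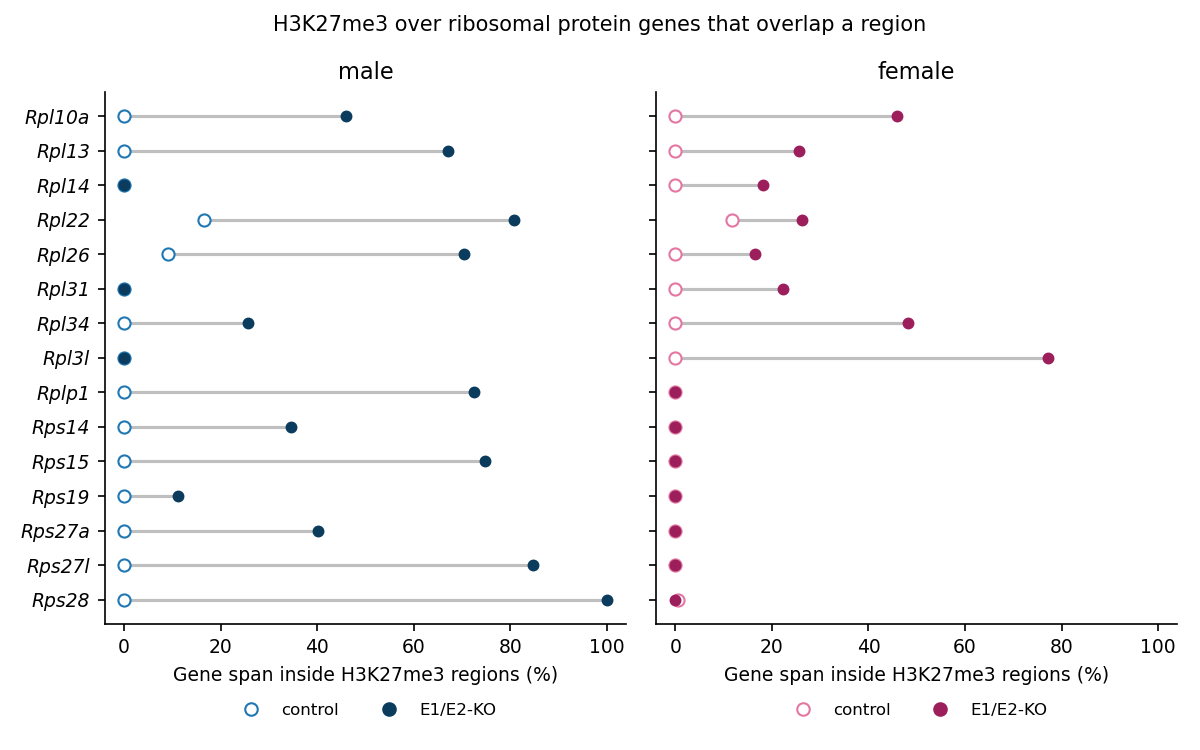
Percent of the gene span inside H3K27me3 regions for ribosomal protein genes that overlap a region in any list. Open circles are control and filled circles E1/E2-KO livers, males on the left and females on the right. Rpl22 overlaps a region in all 4 lists, and most of the genes shown do so in E1/E2-KO lists only.

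H3K27me3 was called over few ribosomal gene spans in control livers and over more of them in E1/E2-KO livers. Regions overlapped 3, 14, 3 and 9 of 78 genes (3.85%, 17.9%, 3.85% and 11.5%), against 44.1%, 49.0%, 41.3% and 39.5% of all genes, whose spans are longer. With spans extended by 3 kb on each side the counts were 24, 32, 25 and 23, for which shares of all genes are not given here. Within 10 kb of the span they were 36, 45, 37 and 37 (46.2%, 57.7%, 47.4% and 47.4%). Over all genes the shares within 10 kb were 59.2%, 62.6%, 58.1% and 53.2%. With these wider windows no excess in E1/E2-KO liver was seen in females. Over all genes the female share within 10 kb was lower in E1/E2-KO than in control liver. In none of the lists were 61 genes overlapped (78.2%, against 43.3% of all genes), and 13 were overlapped in E1/E2-KO lists only (16.7%, against 9.62% of all genes). At least 50% of the span lay inside regions at 1, 9, 0 and 2 genes, against 31.2%, 33.9%, 27.9% and 27.1% of all genes. The start lay inside a region at 0, 8, 0 and 5, against 35.7%, 40.4%, 33.5% and 32.3% of all.

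A rise of 25 percentage points of the span or more in males was seen at 13 of 78 genes (16.7%, against 10.3% of all genes), and a fall at 0 (against 6.29%). In females a rise was seen at 5 genes (6.41%, against 6.56%) and a fall at 0 (against 7.62%). Coverage in control livers was at 0 for nearly all ribosomal genes, which leaves little room for a fall of this size. In both sexes 4 genes rose, 9 in males only and 1 in females only. The matching joint counts over all genes are not given here, so that these counts are not read as particular to ribosomal genes. Among genes with H3K27ac in all 4 lists, 12 of 68 ribosomal genes rose in males (17.6%, Wilson interval 10.4 to 28.4%), against 13.6% of all, and 4 rose in females (5.88%), against 6.95%. Read against genes in the same acetylated state, the ribosomal shares were near the background.

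Of the large subunit genes, Rpl22 was overlapped in each list, over 16.6%, 80.8%, 11.8% and 26.2% of its span. Its region in control male liver was chr4:151706801-151755600 and began inside the gene. Rpl26, whose product is known to bind p53 mRNA, had 9.08%, 70.4%, 0% and 16.5%. Both lay at the edge of regions in control male liver, and in E1/E2-KO male liver more of their span was covered.

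Rpl10a had 0%, 45.9%, 0% and 45.9%, Rpl13 had 0%, 67.2%, 0% and 25.7%, and Rpl34 had 0%, 25.7%, 0% and 48.1%. Like Rpl22 and Rpl26, they were overlapped in both E1/E2-KO lists, as 6 genes were in all (7.69%, against 37.4% of all genes). Rplp1 was overlapped in E1/E2-KO male liver only, over 72.5%. In E1/E2-KO female liver only, Rpl14 was overlapped over 18.1%, Rpl31 over 22.3% and Rpl3l over 77.2%, the last by a region at chr17:24863201-24871200.

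Small subunit genes were overlapped at 0, 7, 1 and 0 of 30, where the shares of all genes were 44.1%, 49.0%, 41.3% and 39.5%. Rps28 was covered over 100% in E1/E2-KO male liver, by a region at chr17:33899201-33962800, and over 0.524% in control female liver. Rps27l was covered over 84.8%, Rps15 over 74.8%, Rps27a over 40.2%, Rps14 over 34.7% and Rps19 over 11.2% in E1/E2-KO male liver, and none of these 5 in another list. Large subunit genes were overlapped at 3, 7, 2 and 9 of 48. Each of these counts rests on 1 pooled list, and differences between lists or subunits were not tested.

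At 10 of the 68 genes with H3K27ac in all 4 lists (14.7%) a region lay over the start in a list, as it did at 33.8% of all 9306 such genes. They included Rpl14, Rpl22, Rpl26, Rpl31 and Rpl34 of the large subunit and Rps19, Rps27a, Rps27l and Rps28 of the small subunit. The regions were called in 400 bp windows joined over gaps of up to 2400 bp, so that a start inside a region can itself lie in a gap without enriched reads. Whether both marks were on the same chromosomes or in different cells of the pooled livers cannot be told apart.

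The ribosomal genes that no region overlapped lay at medians of 14418, 11393, 13585 and 19113 bp from the nearest region, against 34642, 36345.5, 33200 and 43933 bp for all genes without overlap. Among genes without overlap they were thus nearer to H3K27me3 in each list. These were 75, 64, 75 and 69 of 78 ribosomal genes, and 11974, 10918, 12583 and 12965 of all 21418. With overlapped genes included, the order was the opposite. A region lay within 10 kb of 46.2%, 57.7%, 47.4% and 47.4% of ribosomal genes, against 59.2%, 62.6%, 58.1% and 53.2% of all genes. Spans of all genes are longer, and the part of span length in the distances was not tested. At 28 ribosomal genes the nearest region was 10 kb or more away in all 4 lists (35.9%, against 29.6% of all genes), among them Rplp0, Rps18, Rpl5 and Rpl13a.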

How the data were processed

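Chromatin from single livers was immunoprecipitated for each mark, and the authors sequenced 50 nt paired-end reads, concatenated those of a group, and mapped them to mm9 with Bowtie2 (version 2.3.2, from the submitters' processing notes). They called H3K27ac and H3K4me1 peaks with MACS2 (2.1.1) and H3K27me3 regions with SICER (1.1, window 400 bp, gap 2400 bp). The deposited lists, 12 in all from 47 samples, hold positions only, without score, p-value or read count. Depth is therefore unknown, and no test or replicate error could be given.

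Genes, transcripts and sequence came from the NCBIM37 genome, which is mm9, and GENCODE release M1. Each gene had 1 start, the coding start with most coding starts within 100 bp. H3K27ac presence was a peak within 500 bp of it, width that of the widest such peak, a flank 500 bp to 3 kb, and H3K27me3 coverage the percent of the gene span in regions. A change was 1.5-fold in width or 25 percentage points of coverage. Scripts (Python 3.11.15, NumPy 2.4.6) were tested on simulated data. Wilson and order-statistic intervals at 95% treat genes as independent and cover counting error only.

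The ribosomal genes, comparison lists and markers were chosen with earlier results of these data known. Genes named are those without H3K27ac, the 5 widest and 5 narrowest, the 3 largest rises and falls per sex, those overlapping H3K27me3, paralogs with their parents, and Rplp0, Rpl13a, Rps18, Rpl3, Rps6, Rpl5, Rpl11 and Rps19. Rpl19, Rpl24, Rpl27, Rps3 and Rps24 and the examples of arrangement and flank were named after their values were seen. Alternatives changed the start, the window, peak merging, list length, the members and the H3K27me3 criterion. Some genes and sequences that these rules select are not reported here, and counts over all genes include them.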

Additional observations from a re-analysis of the deposited data

Results flagged for a closer look

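The H3K27ac width at ribosomal gene starts moved in opposite directions in the sexes. The median ratio of E1/E2-KO to control width was 1.05 in males and 0.871 in females. Each value compares 1 pooled list with another, and the difference between the sexes was not tested. Over all genes with a peak in both lists the medians were 1.12 and 0.891, the same pair of directions. The control male list had 29359 H3K27ac peaks, the fewest of the 4. With equal numbers of the widest peaks taken from each list the ratios were 1.05 in males and 0.875 in females. Divided by the median width of all gene-start peaks of each list, they were 0.919 in males and 1.07 in females, both reversed. Divided by the median ratio of all genes with a peak in both lists, they were 0.935 and 0.978, both below 1.

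For 4 genes the width was 1.5-fold higher or more in males and 1.5-fold lower or more in females. Rpl28 had ratios of 2.11 in males and 0.641 in females, Rpl9 had 2.45 and 0.570, Rplp1 had 2.08 and 0.399, and Rps27 had 1.74 and 0.655. These differences between the sexes were not tested either. Over all genes 22.3% were 1.5-fold wider in males and 19.8% were 1.5-fold narrower in females. The share of all genes that met both limits is not given here, so that these 4 are not read as particular to ribosomal genes. At Rpl9 and Rplp1 the wide value is 1 peak across the start, in E1/E2-KO male and control female liver, and the narrow value is the wider of 2 peaks beside it. At Rpl28 the widest peak lay upstream of the start in control male liver and downstream in the other lists. Rplp1 had 1401, 1672, 1655 and 1155 acetylated bases within 2 kb of the start, in the order of lists used above, and Rps27 and Rpl9 have a gene on the opposite strand that starts within 1 kb.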

How the results depend on the processing

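Of 130 alternative values over 22 results, 95 stayed within the limits set for the main value, 32 moved and 3 reversed. Divided by the median of all gene-start peaks of its list, which shifts every gene alike and rests on different genes in each list, the median width ratio was 0.919 in males and 1.07 in females, both reversed. Divided by the median ratio of all genes with a peak in both lists, an alternative chosen after seeing the data, it was 0.935 in males, reversed, and 0.978 in females, where it stayed below 1. Where an H3K27ac peak had to cover the start base, 28, 29, 34 and 26 genes had one, with median widths of 1413.5, 1368, 1461 and 1163.5 bp, and H3K4me1 covered the start base at 0 genes in the control male, E1/E2-KO male and control female lists. Where peaks within 1 kb were merged, median widths were 1279.5, 1357.5, 1395 and 1156 bp, and H3K4me1 was on the start at 4, 5 and 2 genes in the first 3 lists. Counted as acetylated bases within 2 kb, the medians were higher in all 4 lists, at 1086.5, 1257, 1318.5 and 1055 bp, of which that of control female liver lay inside the wider interval of its main value. With the start furthest upstream, H3K4me1 was on the start at 3 genes in both control lists. With at least 50% of the span required, H3K27me3 covered 1, 9, 0 and 2 genes, and with spans extended by 3 kb it met 24, 32, 25 and 23. The extended spans did not keep the excess of E1/E2-KO over control lists in females. Leaving out the paralogs, widening the H3K27ac window to 1 kb or using equal numbers of the widest peaks moved no count or median past those limits. The causes were not tested. No paired analysis was possible because each group has 1 pooled list and no result comes from a test. For the same reason no liver could be left out.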
